A study of Mus musculus with 15 samples.

Results

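The mitochondrial ribosomal protein genes were taken as the symbols of the deposited gene list that begin with Mrpl or Mrps and a digit, leaving out symbols that end in -ps, of which none was found. The rule gave 78 genes of 32372 in the list, 49 Mrpl and 29 Mrps, and it used no measured value. All 78 had UMIs (unique molecular identifiers, which tag single mRNA molecules) in every mouse, between 169 and 23379 per gene and mouse, and all 78 were among the 14260 genes that passed the filter on low counts.

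Microglia, the resident macrophages of the brain, were enriched with CD45 beads from brain tissue (cortex and hippocampus by the labels, a hemibrain by their protocol) of 15 male C57BL/6J mice of genotype hTfR KI aged 3.5 months, in which a human transferrin receptor sequence is knocked in, and were profiled by 3′ single-cell RNA-seq. Each mouse had 1 dose of 10 mg/kg. ATV:4D9, an antibody to the microglial receptor TREM2 on an Fc that binds the transferrin receptor (ATV), was followed by sampling at day 1, 7, 14 or 28. ATV:RSV, the control antibody on the same vehicle, was sampled at day 1 only, so there were 5 groups of 3 mice, processed in 3 batches that each held all 5 groups. The later ATV:4D9 groups were thus compared with controls sampled at day 1, and a difference in the time of sampling cannot be told apart from the antibody at those days.

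The mitochondrial ribosome is built in the matrix from rRNA encoded by mitochondrial DNA and from proteins encoded in the nucleus, made in the cytosol and imported. Its small subunit binds the mRNA and holds the decoding centre, and its large subunit joins the amino acids and passes the chain out next to the inner membrane. It makes the 13 proteins that mitochondrial DNA encodes, all of them subunits of the respiratory chain or of ATP synthase. In macrophages the respiratory chain is part of how metabolism differs between resting and activated cells. The symbols do not match the structure throughout: the products of Mrps30 and Mrps18a sit in the large subunit, and Mrps36 encodes a component of the 2-oxoglutarate dehydrogenase complex.

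The files held 102043 cells, 5667 to 7596 per mouse, and 32341960 to 70307384 UMIs per mouse. The median UMIs per cell were 8202 to 8996 at day 1 and 4975 to 5750.0 in ATV:RSV. The 9 microglia markers summed to 20709 to 22128 CPM (UMIs of a gene scaled to a common library total) in ATV:RSV and 14431 to 15979 at day 1, and 0.698% to 2.12% of the cells of a mouse had at least 3 markers of another cell type, on average 1.15 ± 0.281% of an ATV:RSV mouse and 1.87 ± 0.331% of a day 1 mouse (SD over 3 mice). Those with at least 3 markers of border-associated macrophages were 0.871 to 1.35% of cells at day 1 and 0.231 to 0.442% in ATV:RSV. All marker CPM given here are scaled by the library size alone. On that scale the summed CPM of these markers overlapped, at 18.4 to 26.8 at day 1 and 17.5 to 21.1 in ATV:RSV. Gene tests below use another scaling, under which the marker values were not compared, so the overlap may not hold there. Among them only Mrc1 was lower at day 1 without overlap (4.50 to 6.76 against 7.18 to 9.92 CPM). Higher without overlap were Pf4 (8.25 to 11.8 against 4.39 to 7.15 CPM), Cbr2 (1.21 to 1.78 against 0.858 to 1.03 CPM) and Ms4a7 (1.92 to 2.33 against 0.53 to 1.27 CPM). Lyve1, Cd163, F13a1 and Clec4n overlapped. The part of the higher UMIs per cell in the share of cells was not tested. Cells with a UMI of Mki67 or Top2a, genes of dividing cells, made up 19.6 to 27.4% of cells at day 1 and 0.169% to 0.684% in the other 12 mice. Between 5 and 27 cell barcodes were shared by any 2 libraries.

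The first question was how much of the message of microglia came from these genes after the dose. In the ATV:RSV mice their share of all UMIs was 0.336%, 0.328% and 0.343% in batches 1, 2 and 3, and at day 1 of ATV:4D9 it was 0.516%, 0.522% and 0.529%. Every day 1 mouse stood above every ATV:RSV mouse. At days 7, 14 and 28 the share was 0.321 to 0.329%, 0.326 to 0.330% and 0.324 to 0.334%, which overlapped with ATV:RSV. The means were 0.336 ± 0.00761% (SD, n = 3) in ATV:RSV and 0.522 ± 0.00640% at day 1, a ratio of 1.55.

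Counted per cell, the difference at day 1 was larger, and the cells also held more UMIs in all. A cell of the ATV:RSV mice gave 22.2, 18.8 and 21.0 UMIs of the 78 genes on average, and a cell of the day 1 mice gave 50.9, 48.2 and 46.9. The later groups ranged from 18.3 to 22.5. The median cell held UMIs from 14 to 17 of the 78 genes in ATV:RSV and from 29 to 31 at day 1. After each cell had been thinned at random to 3385 UMIs, which left out 10204 shallower cells, it held 11.6 ± 0.215 UMIs of these genes in ATV:RSV and 17.4 ± 0.291 at day 1. Gene by gene, the UMIs per cell were higher on average at day 1 for all 78 genes, by 1.29-fold to 4.02-fold with a median of 2.27-fold, and by at least 2-fold for 54. The median UMIs per cell over all genes were themselves 1.60 times as high at day 1 as in ATV:RSV (means of 3 mice). That ratio is of medians, whereas the values of the genes are means per cell. Total UMIs per mouse were 1.53 times as high, from 1.01 times as many cells. How many of all genes tested were higher per cell was not counted.

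**Figure D1:**
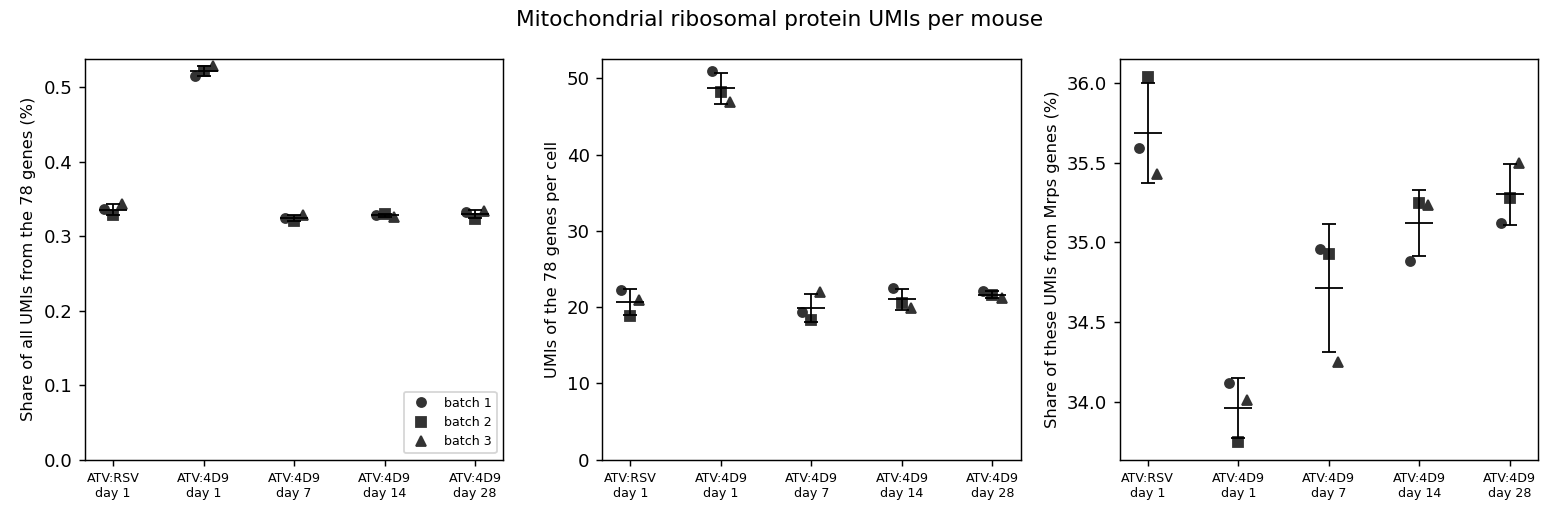
Each point is a mouse, its shape the batch, and bars are means with SD (n = 3). Left, share of all UMIs that came from the 78 genes, in percent; middle, their UMIs per cell; right, the share of those UMIs from Mrps genes, in percent, on an axis that does not start at 0. The 3 day 1 mice lie at 0.516 to 0.529% on the left, above the other 12 mice, and at 33.7 to 34.1% on the right, below the other 12.

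For tests of single genes the UMIs were summed per mouse, scaled to CPM by the TMM method (trimmed mean of M values) and compared with limma-voom over all 15 mice. A gene was called where p, adjusted by Benjamini-Hochberg over every gene tested, was under 0.05. At day 1, 76 of the 78 genes (97.4%) were called higher than in ATV:RSV and 0 lower, where 34.7% of all genes tested were called higher and 34.6% lower. Of the 78 genes 0 also had a lower value at an unadjusted p under 0.05, and edgeR and DESeq2 each called 76 higher and 0 lower, against 34.4% and 34.5% of all genes in edgeR and 34.7% and 31.6% in DESeq2. The median log2 fold change was 0.82 over the 78 genes (quartiles 0.61 and 1.03) and -0.05 over all genes tested, and 22 of the 78 were at least 2-fold higher. The share of all genes at 2-fold with the TMM scaling is not given here, so the 22 has no background beside it. With the library size alone 8 of the 78 were called and at least 2-fold higher, as were 1339 of the 14260 genes tested, a share near that of the 78. For 76 genes every day 1 mouse lay above every ATV:RSV mouse, as was so for 35.7% of all genes tested. Scaling by the library size alone shifted the median of all genes at day 1 to -0.29 and that of the 78 genes to 0.58, with 70 called higher and 2 lower. All genes tested then split into 25.9% higher and 48.8% lower, so fold changes here are relative to the TMM scaling. In a sum per mouse, and in UMIs per cell averaged over all cells of a mouse, a shift in the kinds of cells and a change of RNA within cells cannot be told apart. The part of the lower microglia markers at day 1 in these differences was not tested. Without the cells with markers of other types 76 genes were called higher, against 34.8% of all genes (34.8% lower), and with all mice brought to the same total of UMIs 76 were, against 34.2% (34.5% lower). Without the cells that held a UMI of Mki67 or Top2a, 76 genes were called higher, against 33.8% of all genes (33.3% lower), and the median was 0.84.

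**Figure D2:**
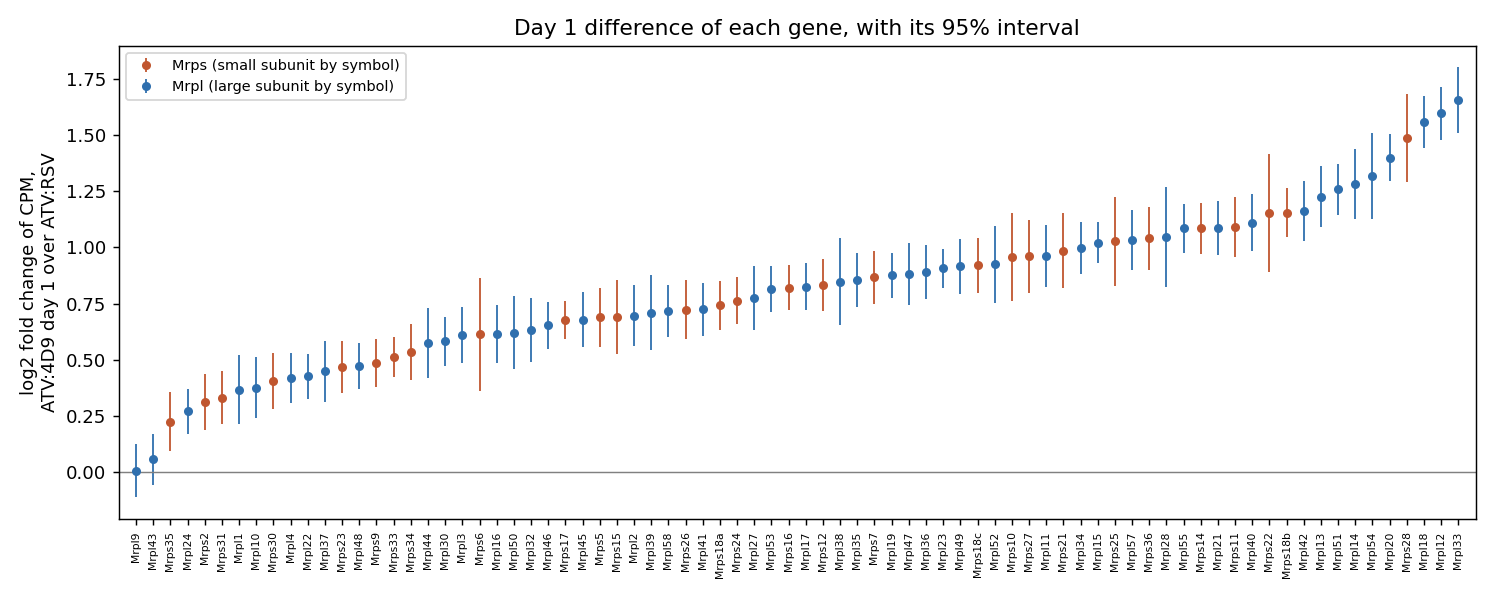
Log2 fold change of CPM at day 1 of ATV:4D9 over ATV:RSV for each of the 78 genes, in rising order, with its 95% interval from the limma-voom fit (3 mice a group). With the TMM scaling shown, the intervals of Mrpl9 and Mrpl43, at the left, include 0 (both were called lower with the library size alone), and Mrpl33, at the right, reaches 1.65.

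Of the 5 highest differences at day 1, 4 were in the large subunit. Mrpl33, at chr5:31596935-31664384 (mm10, GENCODE M21, plus strand), encodes a small protein of the large subunit. It was at 60.1, 50.2 and 51.4 CPM in ATV:RSV and at 168, 169.7 and 171 CPM at day 1. The groups lay far apart, with a log2 fold change of 1.65 ± 0.07 (SE, adjusted p = 8.87e-12 in limma-voom), and the 9 later mice ranged from 52.4 to 65.5 CPM. Mrpl12, at chr11:120484613-120489065, encodes the protein of the mobile stalk that recruits translation factors. It was at 45.1, 44.9 and 47.4 CPM in ATV:RSV, at 133, 138 and 146 CPM at day 1 and at 43.7 to 50.5 CPM in the 9 later mice (log2 fold change at day 1 1.60 ± 0.05, adjusted p = 1.11e-12). Of the proteins at the base of the stalk, Mrpl11 rose from 44.9 ± 3.72 to 87.4 ± 5.90 CPM (SD, n = 3, log2 fold change 0.96 ± 0.06) and Mrpl10 from 15.3 ± 0.736 to 19.8 ± 0.914 CPM (0.37 ± 0.06). With the library size alone Mrpl10 was not called (log2 fold change 0.13, adjusted p = 0.0639).

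Mrpl18, of the central protuberance of the large subunit, was at 53.6, 50.7 and 53.9 CPM in ATV:RSV and 143, 159 and 165 CPM at day 1, a log2 fold change of 1.56 ± 0.05 (adjusted p = 1.4e-12). Mrpl20, which is needed to assemble the large subunit in bacteria, rose from 66.6 ± 3.06 to 175 ± 5.62 CPM (1.40 ± 0.05). Mrpl3, a protein near the peptidyl transferase centre, rose from 26.1 ± 1.18 to 39.9 ± 2.45 CPM, and Mrpl45, which lies at the tunnel exit next to the inner membrane, from 18.2 ± 0.881 to 29.2 ± 0.304 CPM. Mrpl44, which has a fold like that of RNase III, rose from 14.1 ± 1.44 to 20.9 ± 0.604 CPM. Mrpl58, a peptidyl-tRNA hydrolase that became part of the large subunit, rose from 37.7 ± 2.40 to 61.9 ± 3.27 CPM. The log2 fold changes of these last 4 genes lay between 0.57 and 0.72, with adjusted p at most 3.63e-06 in limma-voom. Mrpl52, with the highest mean CPM of the 78 genes and 6.31% of their UMIs, rose from 187 ± 17.5 to 355 ± 17.0 CPM (0.92 ± 0.08).

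All 29 Mrps genes rose at day 1 (26 with the library size alone), among them the 26 whose products are in the small subunit (23 with the library size alone), where 34.7% of all genes tested were called higher (25.9% with the library size alone). The log2 fold changes of these 26 genes ran from 0.22 to 1.49. Mrps28, at chr3:8802146-8923918 on the minus strand, was at 23.8, 24.2 and 28.3 CPM in ATV:RSV and 70.0, 65.2 and 78.6 CPM at day 1, with no overlap and a log2 fold change of 1.49 ± 0.09 (adjusted p = 7.59e-10 in limma-voom). Mrps12, a protein of the decoding centre, rose from 38.2 ± 0.692 to 68.2 ± 2.72 CPM (0.83 ± 0.05). Mrps7, which binds the rRNA of the head of the subunit, rose from 38.5 ± 1.37 to 70.3 ± 4.00 CPM (0.87 ± 0.06), and Mrps5, next to the mRNA channel, from 32.0 ± 1.67 to 51.5 ± 2.82 CPM (0.69 ± 0.06). Mrps27, a pentatricopeptide repeat protein found in mitochondrial ribosomes and not in bacterial ones, had the fewest UMIs of the 78 genes, 169 in the mouse with least, and still rose from 6.18 ± 0.149 to 12.1 ± 0.691 CPM (0.96 ± 0.08). The small-subunit genes with the highest mean CPM were Mrps33, Mrps14 and Mrps24, with log2 fold changes of 0.51, 1.09 and 0.76. Mrps24 overlaps Urgcp on the same strand, and Mrps6 and Mrps34 overlap Slc5a3 and Nme3 in the same way, so their UMIs may include reads of the neighbour.

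The Mrps18 family has 3 members, paralogues with different places in the ribosome. Mrps18b, at chr17:35910379-35916389 on the minus strand, rose most, from 27.8, 26.7 and 26.6 CPM in ATV:RSV to 61.8, 58.9 and 60.1 CPM at day 1 (1.15 ± 0.05, adjusted p = 1.8e-11). Mrps18c rose from 48.1 ± 1.98 to 91.1 ± 3.28 CPM (0.92 ± 0.06), and Mrps18a, whose product sits in the large subunit, from 42.2 ± 2.18 to 70.5 ± 3.56 CPM (0.74 ± 0.05). Differences between the 3 fold changes were not tested. The other genes named for a subunit they are not part of gave 21.9 ± 1.58 and 28.8 ± 0.475 CPM for Mrps30 (0.40 ± 0.06) and 41.4 ± 1.95 and 85.3 ± 3.95 CPM for Mrps36 (1.04 ± 0.07) in ATV:RSV and at day 1, and both were called higher.

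Only Mrpl9 and Mrpl43 were not called at day 1 with the TMM scaling. Mrpl9, at chr3:94443318-94451130 on the plus strand, encodes a counterpart of bacterial ribosomal protein L9. It was at 28.7, 25.6 and 25.7 CPM in ATV:RSV and 25.7, 27.1 and 27.7 CPM at day 1, and the groups overlapped. Its log2 fold change was 0.01 (95% interval -0.11 to 0.12, adjusted p = 0.924 in limma-voom). Mrpl43, at chr19:45004829-45006442 on the minus strand and found in mitochondrial ribosomes but not in bacteria, was at 102, 106 and 113 CPM and 106, 109.6 and 117 CPM, again with overlap (log2 fold change 0.06, 95% interval -0.06 to 0.17, adjusted p = 0.362). The upper ends of both intervals lie below the median of the 78 genes. Scaled by the library size alone, they were called lower at day 1, with log2 fold changes of -0.23 and -0.18. Per cell they gave 1.29 and 1.33 times as many UMIs at day 1 as in ATV:RSV. The median UMIs per cell over all genes were 1.60 times as high, a ratio of medians, whereas the values of Mrpl9 and Mrpl43 are means per cell. Total UMIs per mouse were 1.53 times as high, from 1.01 times as many cells.

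The lowest called differences were those of Mrps35, Mrpl24, Mrps2, Mrps31 and Mrpl1, between 0.22 and 0.37. Mrps35 ranged from 16.8 to 18.3 CPM in ATV:RSV and from 19.9 to 21.9 CPM at day 1 (adjusted p = 0.00405 in limma-voom). Mrpl24 was at 82.3, 79.1 and 81.9 and 101, 92.3 and 101 CPM (adjusted p = 8.61e-05). By the rule that named these 5 genes, day 1 stood above ATV:RSV in every mouse, and the margin was narrow. None of the 5 was called with the library size alone, where the value of Mrps35 turned to -0.015 (adjusted p = 0.831).

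Promoters are shown for Mrpl33 and Mrps18b, the genes with the highest differences of each subunit for which RefSeq gave a window, and for Mrpl9, which had the lowest. A window ran from 250 bases before the RefSeq start of the gene to 50 after it (GRCm38.p6), and 69 of the 78 genes had at least 1, 75 windows in all. The 250 bases before the start are printed, on the strand of the gene, with capitals for matches of 4 short motifs on either strand: the NRF1 core GCGCATGC, the ETS site CCGGAAGT, the YY1 site AAGATGGCG and the E-box CACGTG. NRF1, ETS factors and YY1 are known regulators of nuclear genes for mitochondria.
Mrpl33, chr5:31613701-31613950, plus strand: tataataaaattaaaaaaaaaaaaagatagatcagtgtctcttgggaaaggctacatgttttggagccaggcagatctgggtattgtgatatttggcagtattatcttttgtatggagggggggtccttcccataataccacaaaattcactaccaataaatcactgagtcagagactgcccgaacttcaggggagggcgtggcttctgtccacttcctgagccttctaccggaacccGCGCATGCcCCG
Mrps18b, chr17:35916441-35916690, minus strand: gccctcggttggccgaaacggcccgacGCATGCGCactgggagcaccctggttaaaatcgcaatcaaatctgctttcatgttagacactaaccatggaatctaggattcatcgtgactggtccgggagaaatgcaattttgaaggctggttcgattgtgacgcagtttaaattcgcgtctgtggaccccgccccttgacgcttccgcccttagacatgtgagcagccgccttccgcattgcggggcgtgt
Mrpl9, chr3:94443086-94443335, plus strand: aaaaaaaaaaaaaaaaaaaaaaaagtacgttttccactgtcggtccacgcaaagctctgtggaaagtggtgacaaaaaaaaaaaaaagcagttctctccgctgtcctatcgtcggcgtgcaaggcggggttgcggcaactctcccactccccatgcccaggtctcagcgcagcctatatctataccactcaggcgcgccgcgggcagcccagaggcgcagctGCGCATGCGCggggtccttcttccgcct

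The RefSeq start of Mrpl33 lies inside the longer GENCODE interval given above. All 3 windows held the NRF1 core. In Mrpl33 it began 12 bases before the start and an ETS site began 3 bases before it, so that only its first letters are within the printed stretch. In Mrpl9 the motif matched on both strands in overlap, from 28 and 26 bases before the start, and in Mrps18b it began 223 bases before the start, with another match 28 bases after it that is not printed. Over the windows of these genes the NRF1 core was found in 8 of 75 (10.7%), against 4.96% of the windows of genes tested and 2.71% of all windows. The ETS site was in 12 of 75 (16.0%, against 7.77% and 3.89%), the YY1 site in 8 of 75 (10.7%, against 2.83% and 1.40%) and the E-box in 7 of 75 (9.33%, against 9.81% and 7.15%). For the NRF1 core the median log2 fold change was 0.67 in 8 genes with it (0.01 to 1.65) and 0.82 in 61 without (0.06 to 1.60), and for the ETS site 0.92 in 12 with and 0.76 in 57 without. The 8 genes with the YY1 site had a median of 0.87 (0.45 to 1.16) and the 61 without one of 0.77 (0.01 to 1.65), and for the E-box the medians were 0.89 in 5 with (0.45 to 1.40) and 0.79 in 64 without (0.01 to 1.65). These are matches of letters in a window, given as a description.

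The second question was whether the subunits moved alike. At day 1 the median log2 fold change was 0.76 over the 29 Mrps genes and 0.85 over the 49 Mrpl genes, 7 and 15 of which were at least 2-fold higher. With the library size alone 1 and 7 were called and at least 2-fold higher, against 1339 of the 14260 genes tested. For the Mrps genes that was a smaller share than of all genes, and for the Mrpl genes a larger one. No such background is given here for the TMM scaling. Each subunit covered most of the range of the other. The share of the UMIs of the 78 genes that came from Mrps genes was 35.6, 36.0 and 35.4 percent in ATV:RSV and 34.1, 33.7 and 34.0 percent at day 1. All 3 day 1 mice were below all ATV:RSV mice, and within batches 1, 2 and 3 the difference was -1.47, -2.29 and -1.42 percentage points. The mean difference was -1.73 points, and -1.24 points without Mrps33 and Mrpl52, the genes with most UMIs of each subunit. With Mrps30 and Mrps18a counted in the large subunit and Mrps36 left out, the shares were 32.6 to 33.0% in ATV:RSV and 31.1 to 31.4% at day 1, and the medians of the fold changes came closer, at 0.79 and 0.83. At days 7, 14 and 28 the share of Mrps UMIs was 34.2 to 35.0%, 34.9 to 35.2% and 35.1 to 35.5%, so that the day 7 and day 14 mice were also below all 3 ATV:RSV mice, while the day 28 mice overlapped with them. Within the deposited clusters 0, 1 and 2, described below, the share in ATV:RSV was 35.4 to 36.1%, 35.5 to 35.7% and 34.6 to 38.4%. At day 1 it was 35.1 to 35.4%, 34.0 to 35.3% and 33.7 to 34.1%, with overlap in cluster 0 only.

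The genes can also be divided by whether bacterial ribosomes have a counterpart of the protein, a division made after the values had been seen. Of 45 genes with a bacterial counterpart 44 were called higher at day 1, with a median log2 fold change of 0.85, and of 29 specific to mitochondria 28 were, with a median of 0.72, where 34.7% of all genes tested were called higher. With the library size alone 40 and 26 were, against 25.9% of all genes. Among the Mrps genes the medians were 0.83 (16 genes) and 0.52 (10 genes), and among the Mrpl genes 0.87 (29) and 0.72 (19). The ranges overlapped in each case, and 4 genes were not classed.

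The third question was how long the difference lasted. At day 7, 2 of the 78 genes (2.56%) were called higher than in ATV:RSV and 0 lower, where 2.99% of all genes tested were called higher and 0.996% lower, and at an unadjusted p under 0.05 limma-voom gave 10 higher and 3 lower, against 9.28% and 7.1% of all genes. edgeR called 2 higher and 0 lower, against 3.27% and 1.19% of all genes, and DESeq2 3 and 0, against 4.94% and 1.83%. Mrpl30, of the large subunit, was at 54.5, 55.4 and 59.2 CPM in ATV:RSV and 68.2, 64.7 and 65.6 CPM at day 7, without overlap (log2 fold change 0.23 ± 0.05, adjusted p = 0.0179 in limma-voom). Mrpl23, of the tunnel exit, was at 98.1, 99.9 and 106 CPM and 112, 112 and 115 CPM (0.16 ± 0.04, adjusted p = 0.0364). A fit with the batch as replicate block called 5 of the 78 higher and 0 lower, against 4.75% and 2.36% of all genes tested, a share near the background. Both calls were lost without ATV:RSV replicate 2, day 7 replicate 1 or day 7 replicate 3, with only 1 gene called without ATV:RSV replicate 1 or day 7 replicate 2. With the library size alone 0 were called higher and 5 lower, against 2.22% and 6.19% of all genes tested, again near the background. For 7 of the 78 genes every day 7 mouse lay above every ATV:RSV mouse and for 6 below, as was so for 11% and 10.2% of all genes tested.

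At day 14, 0 of the 78 genes were called in either direction by limma-voom, edgeR or DESeq2, against 0.386% higher and 0.014% lower of all genes tested, and 1 gene was higher and 1 lower at an unadjusted p under 0.05 in limma-voom, against 3.21% and 2.19% of all genes. At day 28 the same tools called 0 of the 78, as limma-voom did of all genes tested (0.0% and 0.0%), and 0 of the 78 had an unadjusted p under 0.05. The log2 fold changes of the 78 genes stayed between -0.24 and 0.23 at day 7, -0.15 and 0.22 at day 14, and -0.16 and 0.15 at day 28, with medians of 0.02, 0.00 and -0.01. All of these comparisons used the same 3 ATV:RSV mice.

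**Figure D3:**
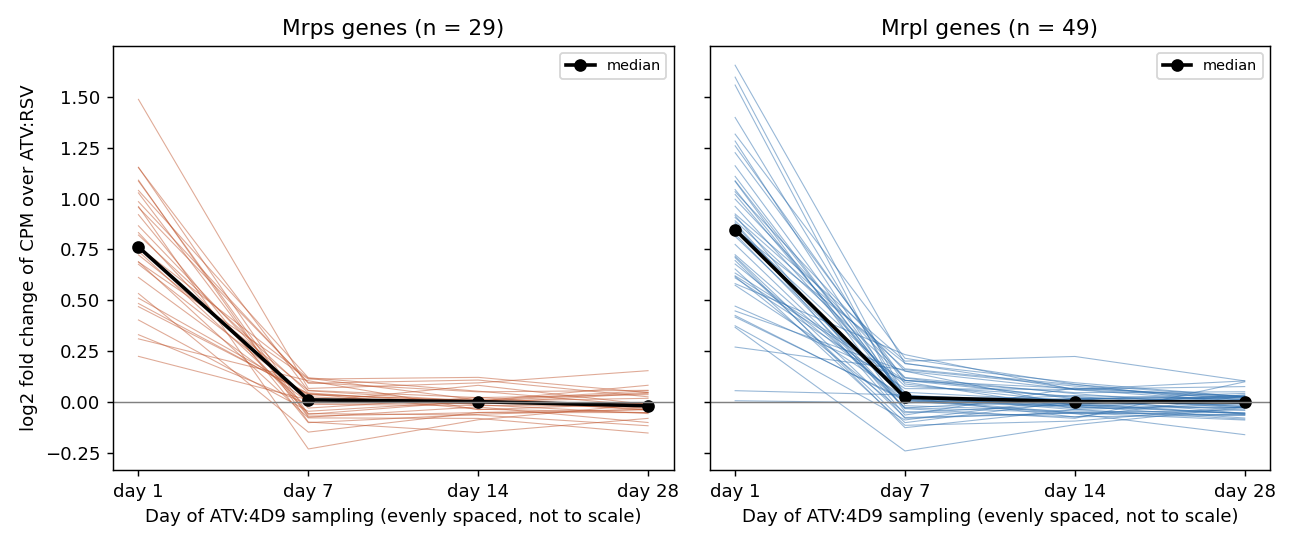
Log2 fold change of CPM over ATV:RSV at days 1, 7, 14 and 28 (spaced evenly) for each Mrps gene (left) and each Mrpl gene (right), with the median in black. With the TMM scaling shown the medians fall from 0.76 and 0.85 at day 1 to 0.01 and 0.02 at day 7. With the library size alone they fall from 0.52 and 0.61 at day 1 to -0.08 and -0.07 at day 7.

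Day 7 was also compared with day 1 directly. In this contrast 76 of the 78 genes were called lower at day 7 and 0 higher, where 33.9% of all genes tested were called lower and 33% higher. edgeR and DESeq2 also called 0 higher, as did limma-voom at an unadjusted p under 0.05, while the library size alone called 2 higher and 72 lower, against 41.4% and 27.8% of all genes. Without the cells with a UMI of Mki67 or Top2a 76 were called lower and 0 higher, against 32.7% and 31.9% of all genes. The median log2 fold change was -0.78. The lowest were Mrpl18 at -1.58 and Mrpl12 at -1.57, and the called genes nearest to 0 were Mrpl24 at -0.11 and Mrps2 at -0.21. Over the 5 groups together, 76 of the 78 genes differed in the F test of limma-voom, against 66.5% of all genes tested.

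The deposited clusters 0, 1 and 2 were made by the authors from the expression of these cells, and most day 1 cells are in cluster 2. It held 5607 to 6597 cells of each day 1 mouse and 74 to 245 of each other mouse, while clusters 0 and 1 held 180 to 555 cells of a day 1 mouse and at least 2184 of any other. In each of the 15 mice the share of UMIs from the 78 genes was lowest in cluster 0 and highest in cluster 2. Leaving out day 1, it was 0.313% to 0.330% in cluster 0, 0.333% to 0.367% in cluster 1 and 0.351% to 0.398% in cluster 2. As the clusters were made from these cells, the order is given without a test.

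Within each cluster the share was higher at day 1. In cluster 0 it was 0.320 to 0.330% in the ATV:RSV mice and 0.361 to 0.373% at day 1, in cluster 1 0.346 to 0.367% and 0.405 to 0.424%, and in cluster 2 0.366 to 0.398% and 0.525 to 0.533%. The groups did not overlap in any of the 3 clusters. UMIs of these genes per cell were 34.1 to 35.8 in ATV:RSV and 49.1 to 55.4 at day 1 in cluster 2, but overlapped in cluster 1, at 13.4 to 17.0 and 13.2 to 18.5, and in cluster 0, at 22.2 to 25.8 and 17.6 to 22.8, where the day 1 cells had fewer UMIs in all (median 4677 to 6139 against 5852 to 6922).

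**Figure D4:**
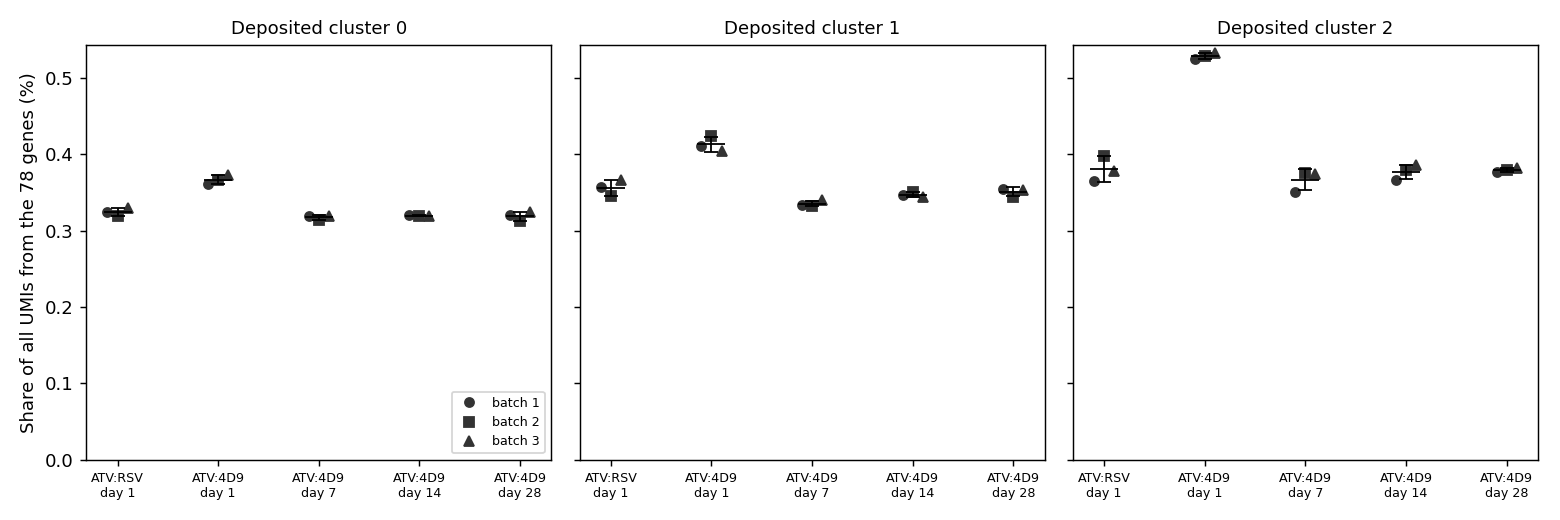
Share of all UMIs from the 78 genes, in percent, in the cells of each deposited cluster. Each point is a mouse, its shape the batch, and bars are means with SD (n = 3); day 1 of ATV:4D9 is highest in all 3 panels, at 0.525 to 0.533% in cluster 2.

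Tested within clusters, fewer genes were called. In cluster 2, 55 of the 78 genes were called higher at day 1 than in ATV:RSV and 0 lower, against 17.5% higher and 19.3% lower of 8511 genes tested there, with a median log2 fold change of 0.48. Mrpl12 was highest, at 64.7 ± 7.71 CPM in ATV:RSV and 132 ± 4.77 CPM at day 1 (log2 fold change 1.05 ± 0.12), followed by Mrpl13 at 0.98 and Mrpl33 at 0.98. The ATV:RSV sums in cluster 2 came from 76 to 165 cells a mouse. Cells with markers of another type were 5.10 to 6.06% of cluster 2 in ATV:RSV and 1.59 to 2.30% at day 1, and cells with Mki67 or Top2a 11.2 to 18.2% and 22.4 to 30.4%. The part of these differences in the count was not tested. In cluster 1, 10 of the 78 genes were called higher and 0 lower, against 6.36% and 2.83% of all genes tested there, and the median was 0.20. In cluster 0, 3 were called higher and 0 lower, against 3.77% and 1.32%, with a median of 0.19. The share of the 78 genes called in cluster 0, 3.85%, was thus near that of all genes. At an unadjusted p under 0.05, limma-voom gave 59, 28 and 21 higher and 0 lower of the 78 in clusters 2, 1 and 0, against 21.2%, 12.4% and 11.7% higher and 25%, 8.99% and 7.46% lower of all genes tested there.

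The 3 genes called in cluster 0 were Mrps11 (0.65 ± 0.13), Mrpl33 (0.53 ± 0.14) and Mrpl20 (0.45 ± 0.09), named after their values were seen, and all 3 were also called in cluster 1 and rose in the sums over all cells. Mrpl9 and Mrpl43 were called in none of the clusters, with log2 fold changes of 0.01 and 0.00 in cluster 2. Mrps2, Mrps30, Mrps35 and Mrpl1, all called higher over all cells, had values of -0.20, -0.12, -0.08 and -0.01 in cluster 2, none of them called.

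Other genes of mitochondrial translation were compared from lists drawn up from general knowledge. Of 5 mitochondrial ribosomal proteins with other names 5 were called higher at day 1 (4 with the library size alone), with a median log2 fold change of 0.83. Chchd1, a small-subunit protein, rose by 1.28 on the log2 scale and Ptcd3, a pentatricopeptide repeat protein of the small subunit, by 0.28, though with the library size alone Ptcd3 was at 0.04 and not called. Of 12 translation factors 5 were called higher and 3 lower (median 0.23), which became 3 and 4 (median -0.0132) with the library size alone. Of all genes tested 34.7% were called higher and 34.6% lower, or 25.9% and 48.8% with the library size alone, so the counts of this list were near the background. Tufm, the elongation factor that brings tRNA to the ribosome, and Tsfm, its exchange factor, rose by 1.09 and 1.01 on the log2 scale, while Mtif3, an initiation factor, fell from 20.3 ± 1.16 to 12.6 ± 1.19 CPM, and Oxa1l, which inserts proteins into the inner membrane, had a log2 fold change of -0.33.

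Of 24 factors that assemble the ribosome or modify its rRNA 6 were called higher and 5 lower, no larger a share than of all genes tested (34.7% and 34.6%), and the median of -0.05 equalled that of all genes tested to 2 decimals, while the library size alone gave 4 higher and 13 lower, where 48.8% of all genes were lower. Mrm3, an rRNA methyltransferase, and Fastkd2, an RNA-binding protein, rose by 0.99 and 0.83, and Mtg2, a GTPase, and Mterf4, which recruits the methyltransferase Nsun4, had log2 fold changes of -0.32 and -0.29. Of 8 genes of mitochondrial transcription and RNA handling 5 were called higher and 1 lower (median 0.36), or 3 and 1 with the library size alone. Slirp, an RNA-binding partner of Lrpprc, was at 40.9 ± 5.01 CPM in ATV:RSV and 106 ± 10.1 CPM at day 1, Tfam, the packaging and transcription factor of mitochondrial DNA, and Grsf1, an RNA-granule protein, rose by 0.47 and 0.31 (Grsf1 was not called with the library size alone), and Tfb2m, a transcription initiation factor, had a log2 fold change of -0.26.

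For the next 3 lists the background at day 1 is that 34.7% of all genes tested were called higher and 34.6% lower with TMM, and 25.9% and 48.8% with the library size alone. The 13 mRNAs that the mitochondrial ribosome translates were all called higher at day 1, with a median log2 fold change of 0.56, from 0.37 for mt-Nd4 to 0.89 for mt-Nd1, and 12 of them with the library size alone. Their share of UMIs is also used as a sign of cell quality, and the median percent of mitochondrial UMIs per cell was 3.96 to 4.50% at day 1 and 3.11 to 3.38% in ATV:RSV, under a limit of 10% in all cells. The part of this difference in the result was not tested. Of 78 nuclear subunits of the respiratory chain and ATP synthase that were tested, 74 were called higher and 1 lower (Cox7a2l), with a median of 1.02 (73 higher and 3 lower with the library size alone), and Atp5g1 was at 139 ± 11.8 CPM in ATV:RSV and 514 ± 30.7 CPM at day 1. Of 77 cytosolic ribosomal proteins 69 were called higher and 0 lower, with a median of 0.56 (56 higher and 6 lower with the library size alone), and Rpsa was at 1091 ± 64.0 CPM in ATV:RSV and 3268 ± 197 CPM at day 1. At day 7, 76 of the 77 cytosolic ribosomal proteins were called higher than in ATV:RSV (median 0.50, against 2.99% of all genes), and at day 14 it was 42 (against 0.386%), where of the 78 mitochondrial ones 2 and 0 were. Differences between the lists were not tested.

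**Figure D5:**
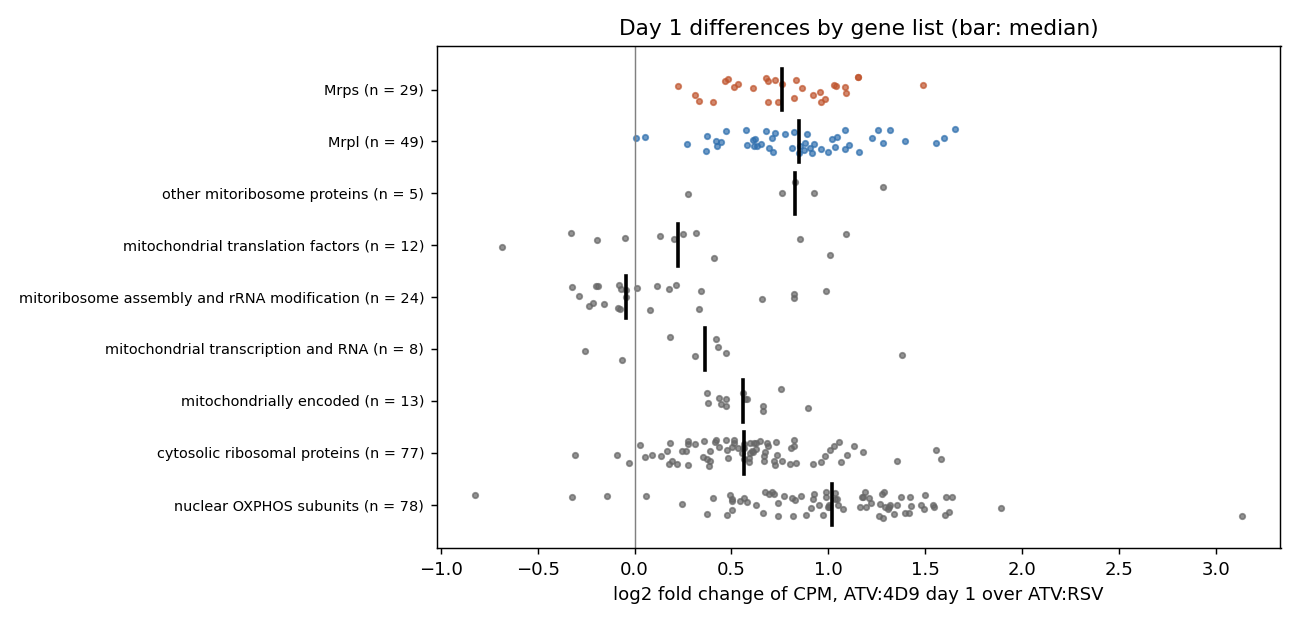
Log2 fold change of CPM at day 1 of ATV:4D9 over ATV:RSV for the genes of each list; each point is a gene that was tested, with random vertical jitter, and black bars are medians. Mrps and Mrpl genes lie between 0.01 and 1.65, and the assembly factors have a median of -0.05, with the TMM scaling; with the library size alone Mrpl9, Mrpl43 and Mrps35 lie below 0 and that median is -0.29.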

How the data were processed

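Single-cell 3′ libraries from 15 mice were used, grouped by the labels. Reads were mapped to mm10 by the authors with Cell Ranger (4.0.0 in the submitters' processing notes), and the authors filtered and clustered the cells. Their paper names another version of Cell Ranger for the wild-type study, so the sources differ on this. Raw UMI counts were deposited for every gene and cell, and a deposited table lists each cell's mouse, cluster and percent of mitochondrial UMIs, at most 10%. Summing the counts gave the deposited total in 102043 of 102043 cells. Treatment of doublets is not given in the sources used here.

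Counts were summed per mouse, or per mouse and cluster where at least 50 cells were present. They were filtered with filterByExpr (minimum count 10, minimum total 15), scaled by TMM and fitted by limma-voom with a mean for each group (R 4.3.3, with edgeR 4.0.16 and limma 3.58.1). Replicates are separate mice, so p-values measure the spread between mice. The sign ± gives the SD over 3 mice or, after a log2 fold change, its SE. On counts simulated for day 1 against ATV:RSV (13983 genes), 89 of 100 genes changed by 1 on the log2 scale and 73 of 100 changed by 0.5 were found, and 10 unchanged genes were called. Only these genes were changed, whereas in the data 34.7% of genes tested were called higher at day 1 and 34.6% lower. The simulation thus cannot show the rate of false calls in that setting. Alternatives were edgeR's quasi-likelihood test, DESeq2 1.42.0, library size alone, no filter, a minimum count of 50, the batch as replicate block, only the groups compared, each mouse left out, equal depth, and leaving out cells with Mki67 or Top2a, cells with 3 or more markers of other types, or the 5% with most UMIs. By the labels a batch holds all 5 groups, which pairs the mice. The mean correlation of deviations from the group was 0.0334 for mice of the same batch (30 pairs) and -0.0164 otherwise (60 pairs).

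Genes were named by role, by the 5 highest and 5 lowest called values at day 1 (10 or more UMIs in all 6 mice, groups apart), by mean CPM (3 of each subunit), by p at later days (up to 3), by nearness to 0 at day 1 (3) and by the 2 highest and 2 lowest at day 7 against day 1, with up to 4 from each other list. Members and lists were chosen with earlier results of these data known. Positions are those of the protein-coding entries in GENCODE M21 (mm10), and promoters are from RefSeq.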

Additional observations from a re-analysis of the deposited data

Results flagged for a closer look

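The difference between 2 time points of ATV:4D9 was itself tested for the 78 genes and was large: 76 were lower at day 7 than at day 1 (limma-voom, adjusted p under 0.05 over all 14260 genes tested, where 33.9% of all genes were called lower). The median log2 fold change was -0.78, and within batches 1, 2 and 3 it was -0.76, -0.78 and -0.83. For 75 of the 78 genes every day 7 mouse was below every day 1 mouse, as was so for 35.2% of all genes tested. The share of cells with a UMI of Mki67 or Top2a also differed, at 19.6 to 27.4% at day 1 and 0.332 to 0.355% at day 7.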

How the results depend on the processing

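Of the 78 genes, the 76 called higher at day 1 and the 76 called lower at day 7 than at day 1 stayed within 1.5 times under the 17 alternatives run for each, from 70 to 76 and from 72 to 76. Scaling by the library size alone gave 2 genes lower at day 1, 0 higher and 5 lower at day 7, and 2 higher at day 7 than at day 1, where TMM gave 0, 2, 0 and 0. It also moved the median log2 fold changes at day 1 to 0.52 (small) and 0.61 (large), and turned Mrps35, Mrpl43 and Mrpl9 to -0.015, -0.18 and -0.23. The cells held more UMIs at day 1, and the cause of the shift was not tested. The 2 genes called higher at day 7 became 1 with no filter on low counts, 5 with the replicate block, 0 with only the 2 groups compared, 1 without the cells with most UMIs and 0 to 2 with a mouse left out. The replicate block (the batch) changed no other count of calls among these genes in the comparisons over all cells. Neither it nor any other of the alternatives was run within clusters, so the results there rest on limma-voom with TMM alone. The median of the large-subunit genes was 0.88 with no filter, 0.81 at equal depth and 0.82 without the cells with most UMIs. Mrpl9 at day 1, not called, was -0.013 with a minimum count of 50 and -0.023 to 0.063 with a mouse left out. The share of small-subunit UMIs fell by 1.73 points at day 1, and its value was -1.24 points without the gene with most UMIs of each subunit. With each gene weighted alike, the mean log2 CPM of small minus large genes differed by -0.06 between day 1 and ATV:RSV (day 1 minus ATV:RSV). Counts from 3′ ends do not show which transcript of a gene was made.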
